A study of Mus musculus with 9 samples.

Results

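The Hox genes of the 4 mouse clusters were examined in long-term haematopoietic stem cells (LT-HSC) with an activated Jak2 allele, with or without a labelled deletion of Ezh2. A gene was a member if its symbol was Hoxa, Hoxb, Hoxc or Hoxd followed by a number and a probe set carried that symbol alone, and a gene with several such probe sets was read from the one brightest over all 9 arrays. This gave 36 of the 22180 genes measured, 9 in the Hoxa, 10 in the Hoxb, 9 in the Hoxc and 8 in the Hoxd cluster. Hoxa11 and Hoxd4 lay only on probe sets shared with another gene and were not counted.

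There were 3 arrays in each of 3 groups of C57BL/6 mice, labelled as biological replicates. WT is the control. Jak2VF carries MxCre and 1 copy of the Jak2VF allele, an activating allele of myeloproliferative neoplasms. Jak2VF_Ezh2KO is MxCre Jak2VF/+ with EZH2-/-. All mice, controls included, received 5 doses of 300 µg of the interferon inducer pI-pC at 4 weeks of age, and bone marrow was taken 12 weeks later. MxCre is switched on by interferon in many cell types, so recombination was not limited to stem cells, and the labels leave unstated whether the WT mice carried it. Cells were sorted as Lin- Sca-1+ c-kit+ CD34- CD135-, and the RNA was amplified before hybridisation. Each value is a log2 signal of 1 array as deposited.

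Hox genes encode homeobox transcription factors that give cells positional and lineage identity, and within a cluster they lie in the order of their paralogue numbers. In blood stem cells the Hoxa and Hoxb clusters are the active ones, and Hoxa9 and Hoxb4 are known for supporting stem cell self-renewal. Silent Hox genes are a classical target of the Polycomb repressive complex PRC2, whose subunit Ezh2 methylates histone H3 at CpG-rich promoters, while the MLL proteins of the Trithorax group keep active Hox genes on. The comparison of Jak2VF_Ezh2KO with Jak2VF therefore addresses the labelled Ezh2 deletion on the same Jak2 background, though sex also differs for some arrays (below). That of Jak2VF with WT reads the Jak2 allele, together with MxCre if the WT mice lacked it.

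The promoters of 5 members named in the results are shown because CpG content is the feature of a Hox promoter tied to Polycomb binding. They are the 250 bases before the start in RefSeq, build GRCm38.p6, written 5′ to 3′ on the gene's strand, with CpG in capitals. Hoxa2 and Hoxa5 are from the anterior part of the Hoxa cluster, Hoxa9 and Hoxb4 were the 2 clearly detected genes, and Hoxd13 had the smallest p-value in Jak2VF against WT. The Hoxa2 window at chr6:52164832-52165081, minus strand, holds 6 CpG.
Hoxa2: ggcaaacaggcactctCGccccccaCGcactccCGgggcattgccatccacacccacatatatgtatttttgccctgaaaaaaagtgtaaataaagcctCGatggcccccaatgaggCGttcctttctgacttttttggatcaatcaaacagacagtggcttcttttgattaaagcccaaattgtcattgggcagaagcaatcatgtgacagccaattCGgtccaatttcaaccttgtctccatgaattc
The Hoxa5 window at chr6:52204588-52204837, minus strand, holds 28 CpG.
Hoxa5: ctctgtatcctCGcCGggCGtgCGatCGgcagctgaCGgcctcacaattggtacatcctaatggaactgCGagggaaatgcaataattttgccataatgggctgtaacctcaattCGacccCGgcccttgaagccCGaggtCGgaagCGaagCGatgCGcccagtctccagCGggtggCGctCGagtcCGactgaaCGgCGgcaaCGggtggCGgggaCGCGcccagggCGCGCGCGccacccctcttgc
The Hoxa9 window at chr6:52227371-52227620, minus strand, holds 3 CpG.
Hoxa9: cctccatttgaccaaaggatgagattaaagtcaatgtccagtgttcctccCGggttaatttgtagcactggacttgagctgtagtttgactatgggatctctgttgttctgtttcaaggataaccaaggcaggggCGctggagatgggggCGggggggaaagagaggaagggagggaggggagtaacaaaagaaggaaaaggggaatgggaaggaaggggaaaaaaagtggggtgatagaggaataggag
The Hoxb4 window at chr11:96318017-96318266, plus strand, holds 14 CpG.
Hoxb4: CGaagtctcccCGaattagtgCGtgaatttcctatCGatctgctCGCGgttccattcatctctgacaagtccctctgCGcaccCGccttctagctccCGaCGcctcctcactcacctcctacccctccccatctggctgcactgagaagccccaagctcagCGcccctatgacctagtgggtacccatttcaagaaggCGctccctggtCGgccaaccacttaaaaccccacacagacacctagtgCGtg
The Hoxd13 window at chr2:74667975-74668224, plus strand, holds 31 CpG.
Hoxd13: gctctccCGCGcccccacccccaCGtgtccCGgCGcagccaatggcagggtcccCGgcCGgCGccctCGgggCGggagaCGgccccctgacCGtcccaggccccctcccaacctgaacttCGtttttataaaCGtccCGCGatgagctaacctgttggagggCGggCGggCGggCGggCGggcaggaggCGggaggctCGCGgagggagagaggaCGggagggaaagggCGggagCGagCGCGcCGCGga

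Entries were given for 20 of the 36 genes, with 22 start sites, and Hoxa4 was among the 16 without one. The median Hox window held 12.5 CpG, against 6 over all 32851 windows, and its median GC content was 59.2% against 52.4%. Windows with at least 50% GC and an observed-to-expected CpG ratio of at least 0.6 made up 45.5% of the Hox windows (10 of 22) and 31% of all. On both strands, TTCNNNGAA, the core of the STAT site through which Jak2 signalling reaches DNA, was in 0 Hox windows and in 7.02% of all windows. TGATTNAT, the site of Hox proteins with a Pbx partner, was in 2 Hox windows (9.09%), those of Hoxa2 and of the second Hoxd11 start, and in 2.82% of all. TGACAG, the Meis core, was in the Hoxa2 and Hoxa3 windows (9.09% against 15.9%), and TATAAA in those of Hoxa10, Hoxb8 and Hoxd13 (13.6% against 12.4%).

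The targeted gene Ezh2 read 8.48, 8.81 and 8.69 on the WT arrays, 8.87, 9.09 and 8.78 on the Jak2VF arrays, and 8.47, 8.08 and 8.42 in Jak2VF_Ezh2KO. Its difference from Jak2VF was -0.59 ± 0.16 (SE, limma adjusted p = 0.411), with no overlap between these groups. From WT it was -0.34 (limma adjusted p = 0.596), and Jak2VF_Ezh2KO replicate 1 read about as high as WT replicate 1. The Ezh2 signal was thus lower but far above background on all 3 Jak2VF_Ezh2KO arrays, so the label was not borne out as an absence of Ezh2 RNA. The labels do not say which exons were deleted or what the probe set covers, and probes outside the deletion check nothing. Jak2VF_Ezh2KO below means the libraries so labelled. Jak2 itself read 7.91 to 8.11 in WT, 8.11 to 8.52 in Jak2VF and 7.66 to 7.93 in Jak2VF_Ezh2KO. Of the 10 stem cell markers measured, 6 were above background on all 9 arrays, while 8 of 13 stroma and endothelium markers were above it on none. The background used here is the 95th percentile, on the same array, of 1409 odorant, vomeronasal and trace amine receptor genes. It lay between 5.89 and 6.06 on 6 arrays and between 6.63 and 6.73 on WT replicates 1 and 3 and Jak2VF replicate 1. Jak2VF_Ezh2KO replicates 1 and 2 carried male signal (Kdm5d at 6.44 and 6.60) and low Xist, and the other 7 arrays had Xist between 10.84 and 11.31. Thus 2 of the 3 Jak2VF_Ezh2KO arrays differed from all others in sex.

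On the probe sets kept, few Hox genes gave a signal that could be told from background. Hoxa9 and Hoxb4 exceeded the receptor percentile on all 9 arrays. Another 9 genes did so on some arrays, namely Hoxa2, Hoxa3, Hoxa5 and Hoxb3 on 1 array each, Hoxb6 on 2, Hoxa6 on 4, Hoxd10 on 5, and Hoxa7 and Hoxb5 on 6. The remaining 25 were above it on none, and these include all 9 Hoxc genes. Array by array, the number above the percentile was 2, 8 and 2 on the WT arrays, 2, 5 and 6 on the Jak2VF arrays, and 7, 6 and 7 in Jak2VF_Ezh2KO. The 3 arrays with 2 genes are those with the highest receptor signal, so this count moves with the background and is not compared between groups. Among the probe sets left out as shared, that of Mira and Hoxa7 read 7.69 to 8.52 and that of Hoxb3 and Hoxb2 6.44 to 7.42. Both exceeded the percentile on all 9 arrays, and their signal cannot be assigned to 1 gene. A gene near background has its change understated on the log2 scale. In these bulk samples, fewer cells expressing a Hox gene and less of its RNA per cell cannot be told apart.

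**Figure D1:**
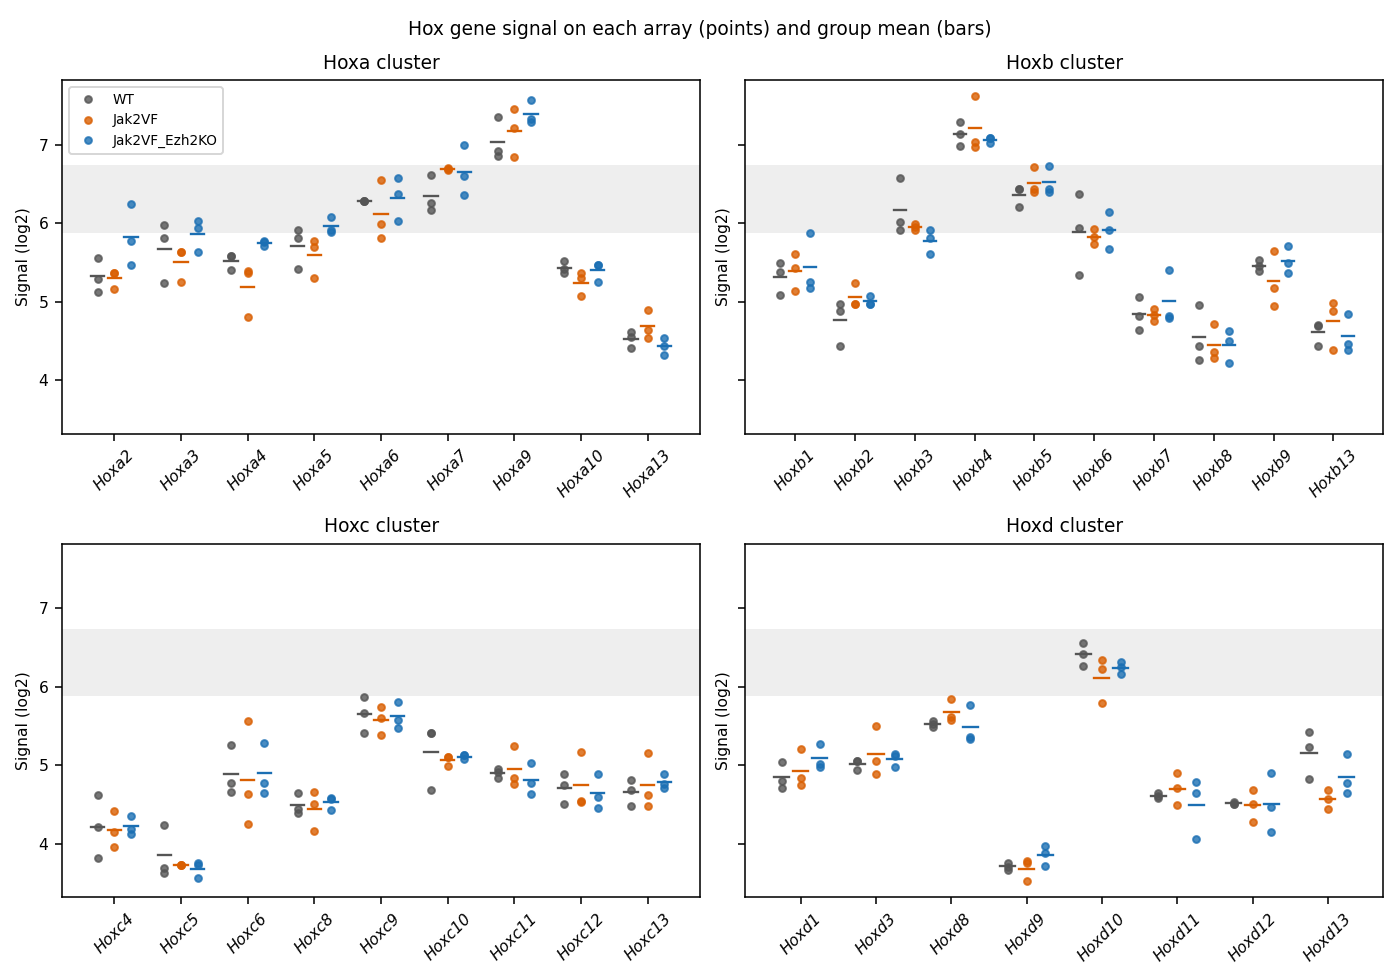
Log2 signal of the 36 Hox genes by cluster, in cluster order, with a point for each of the 9 arrays and a bar at each group mean, and with a grey band over the range of the receptor-gene 95th percentile of the arrays (5.89 to 6.73). Hoxa9 and Hoxb4 are the genes whose 9 points all lie above the band, and the Hoxc genes all lie below it.

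No Hox gene passed limma's test in any of the 3 comparisons. At an adjusted p under 0.05 the calls were 0 of 36 in each, against 0% of all genes in Jak2VF against WT, 0.0451% in Jak2VF_Ezh2KO against Jak2VF and 0.0225% in Jak2VF_Ezh2KO against WT. The smallest adjusted p of a Hox gene was 0.924, 0.504 and 0.547 in that order, and ordinary least squares also called 0. At an unadjusted p under 0.05, Jak2VF against WT had 0 Hox genes higher and 1 lower, against 2.85% and 1.81% of all genes (4.66% in both directions). Jak2VF_Ezh2KO against Jak2VF had 2 higher and 0 lower, against 2.91% and 3.99% (6.89%), and Jak2VF_Ezh2KO against WT had 1 higher and 0 lower, against 4.54% and 4.06% (8.6%). The share over the 36 Hox genes was 2.78%, 5.56% and 2.78%, from 1, 2 and 1 genes. Each lies below the share over all genes, but counts this small do not establish a lower share.

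The median absolute difference was 0.11 for Hox genes and 0.13 for all genes in Jak2VF against WT. It was 0.14 for both in Jak2VF_Ezh2KO against Jak2VF, and 0.11 against 0.15 in Jak2VF_Ezh2KO against WT. The signed median over the Hox genes was -0.03, 0.05 and 0.02 in the 3 comparisons, beside 0.03, -0.04 and -0.02 over all genes. Intervals bound what was missed. The median half-width of the 95% interval was 0.40, and the interval lay within a 2-fold change either way for 35 of 36 genes in Jak2VF against WT and for all 36 in the other 2 comparisons. The exception was Hoxd13. These intervals refer to the array signal, not to RNA, for the genes near background.

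**Figure D2:**
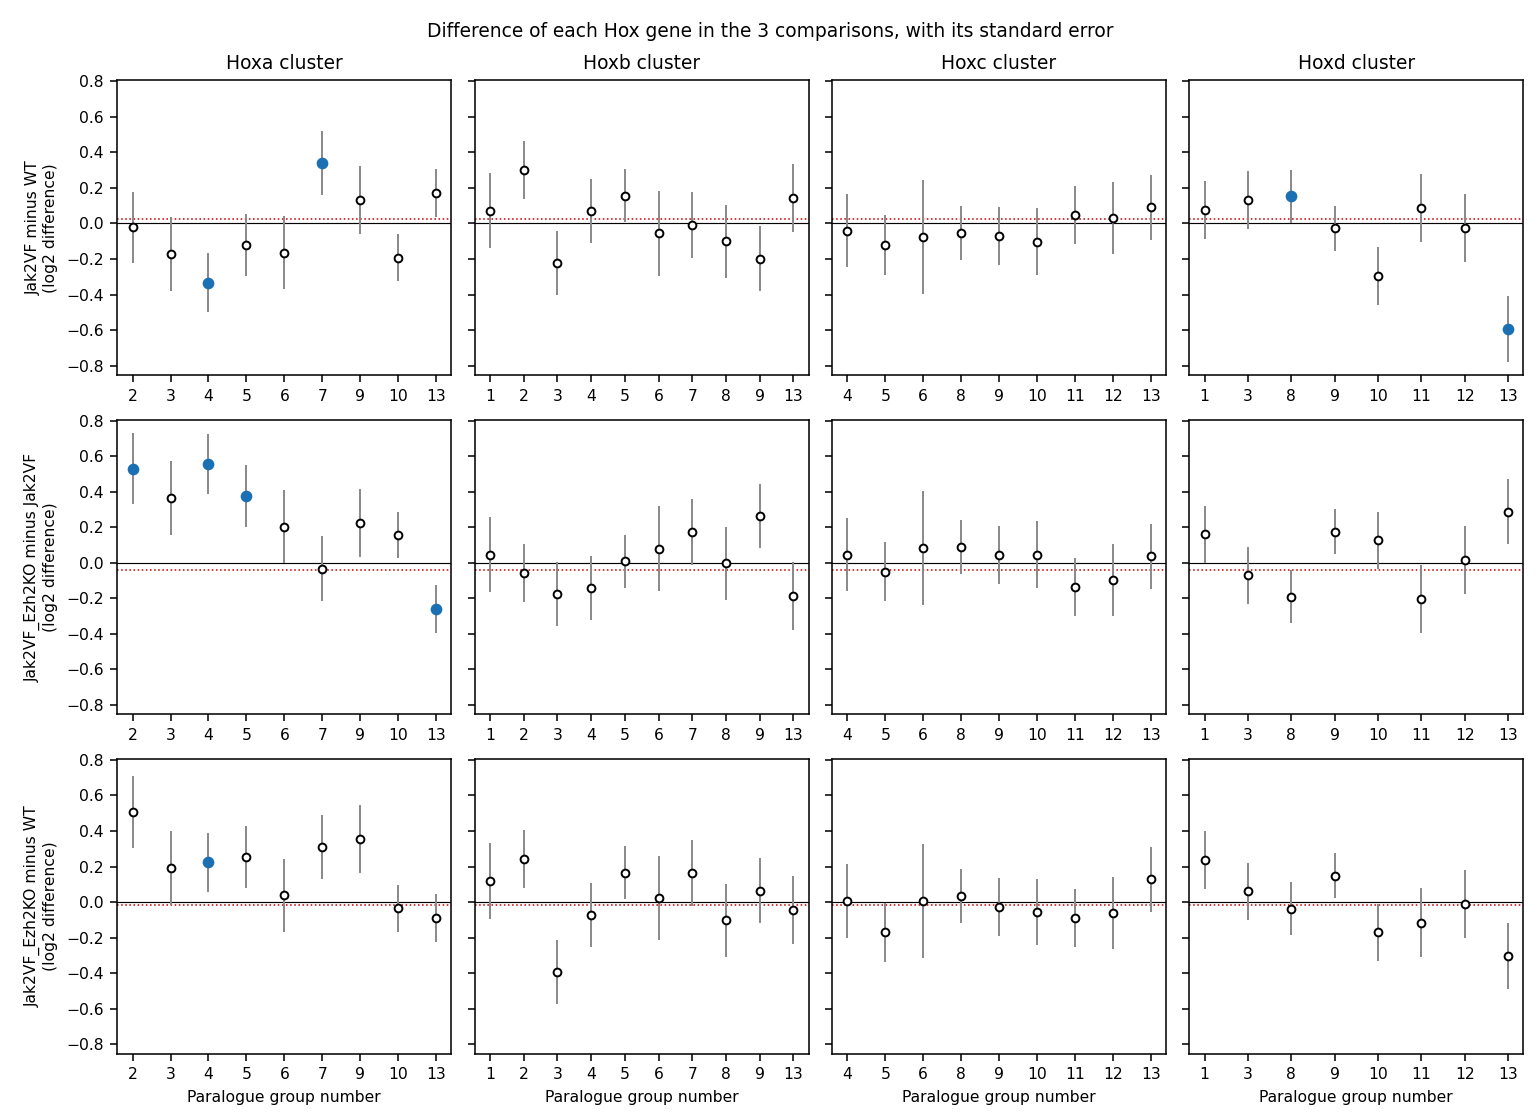
Log2 difference of each Hox gene (vertical axis) by paralogue number (horizontal axis), in columns for the clusters and rows for the 3 comparisons, with bars of 1 standard error, filled points where the groups do not overlap and a dotted line at the median of all genes. In Jak2VF_Ezh2KO against Jak2VF, Hoxa2 to Hoxa5 lie between 0.36 and 0.56, and the Hoxc genes between -0.14 and 0.09.

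The Hoxa cluster held the 4 largest Hox differences of Jak2VF_Ezh2KO against Jak2VF, at its anterior end. Hoxa4, which like its anterior neighbours patterns the neck region, read 4.81, 5.37 and 5.40 in Jak2VF and 5.71, 5.76 and 5.77 in Jak2VF_Ezh2KO, after 5.40, 5.58 and 5.59 in WT. The Jak2VF_Ezh2KO arrays were above both other groups with no overlap. The difference from Jak2VF was 0.56 ± 0.17 (SE, 1.47-fold, 95% interval 0.18 to 0.93, unadjusted p = 0.00768), which did not pass (limma adjusted p = 0.504). Jak2VF replicate 1 weighs on it, and without that array the difference was 0.36. Hoxa4 was below the receptor percentile on all 9 arrays.

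Hoxa2, which patterns the hindbrain and its neural crest, read 5.12, 5.56 and 5.29 on the WT arrays, 5.17, 5.36 and 5.37 on the Jak2VF arrays, and 5.47, 6.25 and 5.77 in Jak2VF_Ezh2KO. The last group was above Jak2VF without overlap, its highest value came from replicate 2, and it overlapped WT. The difference from Jak2VF was 0.53 ± 0.20 (SE, 1.44-fold, limma adjusted p = 0.641), and 0.32 without Jak2VF_Ezh2KO replicate 2.

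Hoxa5, which is needed for lung and skeletal patterning, read 5.91, 5.82 and 5.42 on the WT arrays, 5.31, 5.78 and 5.70 on the Jak2VF arrays, and 5.92, 5.90 and 6.09 in Jak2VF_Ezh2KO. The last 2 groups did not overlap, and the difference was 0.37 ± 0.17 (SE, limma adjusted p = 0.732). Its 95% interval, -0.02 to 0.76, includes 0. Hoxa3, which is needed for the thymus and parathyroid, overlapped between all groups, with 5.81, 5.98 and 5.24 on the WT arrays, 5.63, 5.26 and 5.63 on the Jak2VF arrays, and 5.63, 5.95 and 6.03 in Jak2VF_Ezh2KO. Its difference from Jak2VF was 0.36 ± 0.21 (SE, limma adjusted p = 0.769).

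Hoxa2, Hoxa4 and Hoxa5 were 3 of the 4 Hox genes whose Jak2VF and Jak2VF_Ezh2KO arrays did not overlap. Genes higher without overlap made up 4.18% of all genes in this comparison, and genes lower without overlap 6.94% (11.1% in both directions). The 4 Hox genes were 11.1% of the 36, the same share as over all genes. The single lower Hox gene was Hoxa13, at the other end of the cluster and a gene of limb and hindgut ends. It read 4.542, 4.643 and 4.892 in Jak2VF and 4.325, 4.541 and 4.431 in Jak2VF_Ezh2KO (difference -0.26 ± 0.14 SE, limma adjusted p = 0.745). The nearest readings of these groups, 4.542 and 4.541, were almost equal. All readings of Hoxa2, Hoxa4, Hoxa5 and Hoxa13 but 1 array each of Hoxa2 and Hoxa5 were below the receptor percentile of their array. The median difference over the 6 measured Hoxa genes of paralogue groups 1 to 8 was 0.37, and over the 3 of groups 9 to 13 it was 0.16. Against WT the same medians were 0.24 and -0.04. This split of the Hoxa cluster was not planned, and its first part holds the 4 Hox genes with the largest differences from Jak2VF. The planned paralogue groups 1 to 3, 4 to 8 and 9 to 13 of all clusters had medians of 0.05, 0.06 and 0.04 against Jak2VF. Over the 9 Hoxa genes together the median against Jak2VF was 0.23, with 7 of 9 differences positive. Without both male arrays, which leaves replicate 3 as the 1 Jak2VF_Ezh2KO array and the one with the highest Hoxa median, it was 0.46. It ranged from 0.14 to 0.42 over the single arrays left out.

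The mean of Hoxa2 to Hoxa5 relative to WT was -0.33, -0.12 and -0.04 on the Jak2VF arrays and 0.12, 0.40 and 0.35 on the Jak2VF_Ezh2KO arrays. The WT arrays themselves spread from -0.17 to 0.17, so Jak2VF_Ezh2KO replicate 1 lies within the WT range. These 4 genes were put together after their values were seen. Markers of stem cells and of other cells also differed between these arrays. The mean over 10 stem cell markers was 7.65 to 7.66 in WT, 7.38 to 7.45 in Jak2VF and 7.36 to 7.60 in Jak2VF_Ezh2KO. In Jak2VF against WT, 9 of these 10 read lower and 1 higher. At a limma unadjusted p under 0.05, 2 were lower and 0 higher, against 1.81% and 2.85% of all genes. In Jak2VF_Ezh2KO against Jak2VF, 5 stem cell markers read higher and 5 lower. Of these, 1 was higher and 1 lower at that threshold, against 2.91% and 3.99% of all genes. The mean over 5 megakaryocyte markers was 7.38 to 7.85 in WT, 7.80 to 8.49 in Jak2VF and 7.17 to 7.59 in Jak2VF_Ezh2KO, and 1 of the 5, Itga2b, fell in Jak2VF_Ezh2KO against Jak2VF (-1.45, limma adjusted p = 0.0441). The mean over 10 neutrophil and monocyte markers was 5.71 to 6.36, 5.97 to 6.57 and 5.84 to 7.29 in the same order. That over 7 B cell markers was 5.18 to 5.39, 5.11 to 5.32 and 5.05 to 6.30, so the Jak2VF_Ezh2KO arrays spread most in both lists. The mean over 8 T and NK cell markers was 5.64 to 5.81, 5.54 to 5.76 and 5.79 to 6.14, and that over 5 erythroid markers 8.03 to 8.54, 7.77 to 8.52 and 8.50 to 8.61. Their part in the Hoxa differences was not tested. The comparisons of Jak2VF_Ezh2KO with Jak2VF and of Jak2VF with WT share the Jak2VF arrays, so a low Jak2VF reading enters both with opposite sign. For Hoxa4 the 2 differences were 0.56 and -0.33, for Hoxa3 0.36 and -0.17, for Hoxa5 0.37 and -0.12, and for Hoxa2 0.53 and -0.02.

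**Figure D3:**
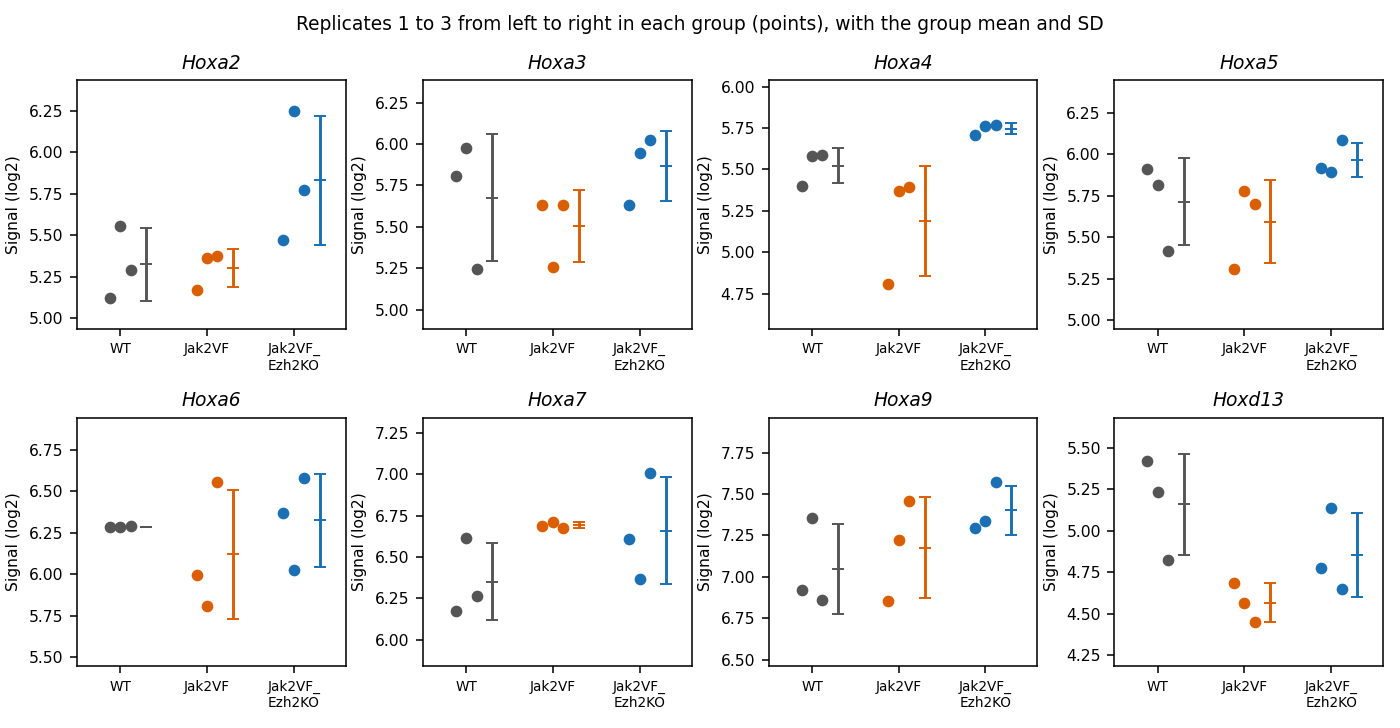
Log2 signal of Hoxa2 to Hoxa7, Hoxa9 and Hoxd13, with a point for each replicate and the mean and SD of each group of 3 arrays, on axes that differ between genes and do not start at 0. Hoxa2, Hoxa4 and Hoxa5 read higher on every Jak2VF_Ezh2KO array than on every Jak2VF array, and Hoxd13 lower on every Jak2VF array than on every WT array.

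Hoxa9, the Hox gene most closely tied to stem cell expansion and leukaemia, gave a clear signal. It read 6.92, 7.36 and 6.86 on the WT arrays (mean 7.04 ± 0.27 SD, n = 3), 6.85, 7.22 and 7.46 on the Jak2VF arrays (7.18 ± 0.30), and 7.30, 7.34 and 7.57 in Jak2VF_Ezh2KO (7.40 ± 0.15). The groups overlapped in every pair. The difference was 0.13 ± 0.19 for Jak2VF against WT (limma adjusted p = 0.95) and 0.36 ± 0.19 for Jak2VF_Ezh2KO against WT (SE, limma adjusted p = 0.638). The lowest 3 readings, 6.92, 6.86 and 6.85, came from the 3 arrays with the highest receptor signal. Without those arrays, which leaves WT replicate 2 as the 1 WT array, Hoxa9 in Jak2VF against WT was -0.02.

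The remaining Hoxa genes of the middle and posterior part differed in direction. Hoxa7, a gene expressed in blood progenitors, read 6.18, 6.62 and 6.26 on the WT arrays, 6.69, 6.71 and 6.68 on the Jak2VF arrays, and 6.61, 6.37 and 7.01 in Jak2VF_Ezh2KO. Jak2VF was above WT without overlap, by 0.34 ± 0.18 (SE, limma adjusted p = 0.924). Hoxa10, which acts with Hoxa9 in progenitors, read 5.36 to 5.52 in WT, 5.07 to 5.36 in Jak2VF and 5.26 to 5.47 in Jak2VF_Ezh2KO, and its largest difference was -0.19. Hoxa6 differed by at most 0.20 between groups.

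In the Hoxb cluster, Hoxb4, known for expanding stem cells when overexpressed, read 7.29, 7.15 and 6.98 on the WT arrays, 7.04, 6.97 and 7.62 on the Jak2VF arrays, and 7.03, 7.09 and 7.09 in Jak2VF_Ezh2KO. The groups overlapped, and the 3 differences were 0.07, -0.14 and -0.07 (limma adjusted p = 0.976, 0.91 and 0.932). Jak2VF replicate 3 stood above all other arrays, and without it the difference of Jak2VF from WT turned to -0.13. Hoxb5, named here after its values were seen because it marks long-term stem cells, read 6.20 to 6.73 over the 9 arrays with differences of 0.16, 0.01 and 0.16.

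Hoxb3, a neighbour that acts with Hoxb4 in stem cells, read 6.58, 5.91 and 6.02 on the WT arrays, 5.99, 5.95 and 5.91 on the Jak2VF arrays, and 5.91, 5.61 and 5.82 in Jak2VF_Ezh2KO. WT replicate 1 was the high array, and the difference of Jak2VF_Ezh2KO from WT was -0.39 ± 0.18 (SE, limma adjusted p = 0.584). Hoxb2, a hindbrain gene, read 4.97, 4.43 and 4.88 on the WT arrays, 4.97, 4.97 and 5.24 on the Jak2VF arrays, and 4.97, 5.07 and 4.97 in Jak2VF_Ezh2KO. The value 4.97 was identical as deposited on 5 arrays. Over the 10 Hoxb genes the median difference was 0.03 in Jak2VF against WT, 0.00 in Jak2VF_Ezh2KO against Jak2VF and 0.04 in Jak2VF_Ezh2KO against WT.

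Such equal values belong to the deposited table. Of the 36 Hox genes, 15 (41.7%) had an identical value on at least 2 arrays and 7 (19.4%) on at least 3, against 46.5% and 23.4% of all genes. Hoxc5 read 3.73 on all 3 Jak2VF arrays and on Jak2VF_Ezh2KO replicate 3, and Hoxb5 read 6.44 on 4 arrays.

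The Hoxc cluster, which patterns the trunk and hindlimb and has little known role in stem cells, was the flattest. Its 9 genes were all below the receptor percentile on every array. Their differences ranged from -0.12 to 0.09 in Jak2VF against WT, from -0.14 to 0.09 in Jak2VF_Ezh2KO against Jak2VF and from -0.17 to 0.13 in Jak2VF_Ezh2KO against WT. The medians were -0.05, 0.04 and -0.03. In the Hoxd cluster, which patterns limbs and the genital tubercle, the medians over 8 genes were 0.02, 0.07 and -0.02.

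Hoxd13, the most posterior gene of its cluster, had the smallest unadjusted p of a Hox gene in Jak2VF against WT. It read 5.42, 5.23 and 4.82 on the WT arrays, 4.68, 4.57 and 4.45 on the Jak2VF arrays, and 4.78, 5.14 and 4.65 in Jak2VF_Ezh2KO. Every Jak2VF array was below every WT array, and Jak2VF_Ezh2KO overlapped both other groups' ranges. The difference from WT was -0.59 ± 0.19 (SE, a 1.51-fold lower signal, 95% interval -1.01 to -0.18, unadjusted p = 0.00966) and did not pass (limma adjusted p = 0.924). All 9 readings were below the receptor percentile. Hoxd10, a gene of the lumbar region, read 6.56, 6.26 and 6.42 on the WT arrays, 6.23, 5.79 and 6.34 on the Jak2VF arrays, and 6.16, 6.25 and 6.32 in Jak2VF_Ezh2KO (Jak2VF against WT -0.30 ± 0.16 SE, limma adjusted p = 0.924).

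In Jak2VF against WT, 4 of 36 Hox genes had groups without overlap, against 6.11% of all genes. Hoxa7 and Hoxd8 were higher (2 of 36, against 3.54% of all genes), and Hoxa4 and Hoxd13 lower (2 of 36, against 2.57%). In Jak2VF_Ezh2KO against WT only Hoxa4 was higher without overlap, and none was lower, against 6.28% and 6.62% of all genes (12.9% in both directions). The median difference in Jak2VF_Ezh2KO against Jak2VF was 0.05 for paralogue groups 1 to 3 (7 genes), 0.06 for groups 4 to 8 (14 genes) and 0.04 for groups 9 to 13 (15 genes). Against WT these medians were 0.19, 0.03 and -0.04.

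**Figure D4:**
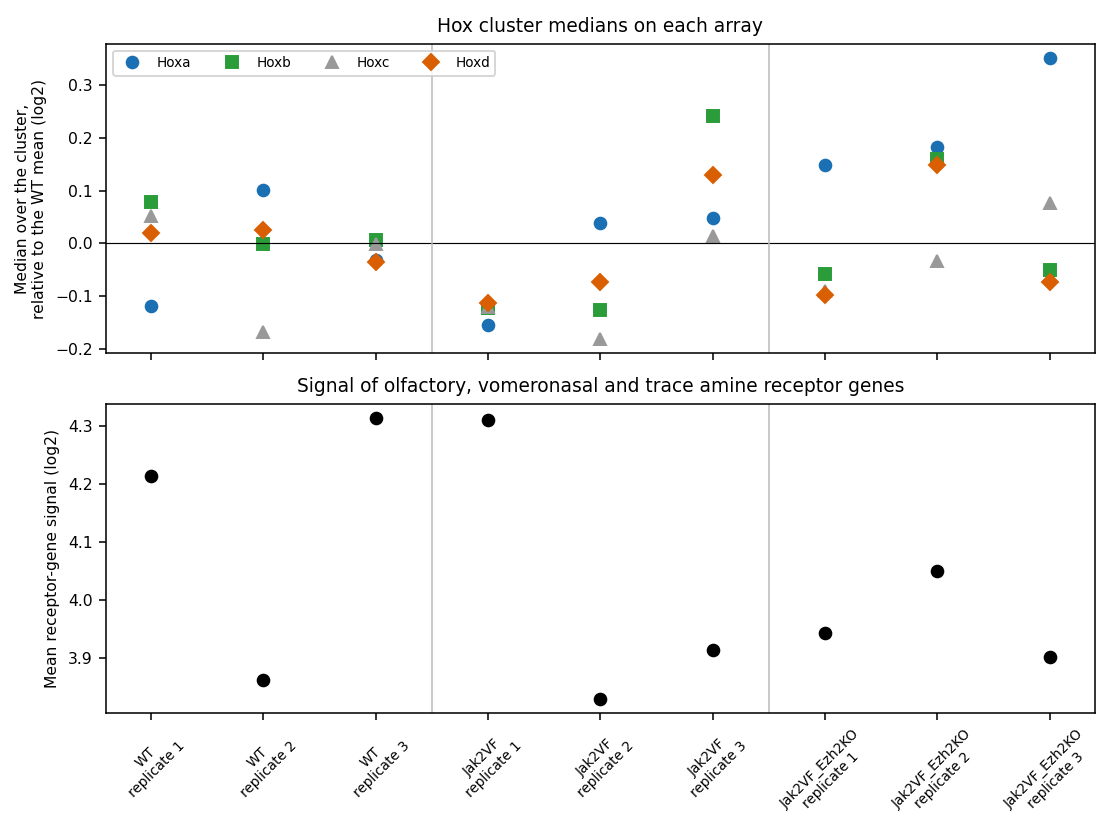
Upper panel, median log2 signal of the Hox genes of each cluster relative to the WT mean, for each array. Lower panel, mean log2 signal of the receptor genes, highest at 4.21, 4.31 and 4.31 on WT replicates 1 and 3 and Jak2VF replicate 1. The Hoxa medians of the Jak2VF_Ezh2KO arrays are 0.15, 0.18 and 0.35, and those of WT reach 0.10, while the Hoxb, Hoxc and Hoxd medians overlap between groups.

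The spread between replicates of a group was that of other genes. The median SD of a Hox gene was 0.18 in WT, 0.22 in Jak2VF and 0.17 in Jak2VF_Ezh2KO, beside 0.20, 0.21 and 0.16 over all genes. Over the 9 arrays the range of a Hox gene ran from 0.44 (Hoxd9) to 1.32 (Hoxc6). Of the 36 Hox genes, 10 were highest on Jak2VF replicate 3 and 8 on Jak2VF_Ezh2KO replicate 3, and 8 were lowest on Jak2VF replicate 2. Over all genes, Jak2VF replicate 3 also had the highest array median (5.85) and Jak2VF replicate 2 the lowest (5.70), and the part of this in the counts was not tested.

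The genes for proteins that read or write Hox chromatin were measured as RNA on the same arrays, and none passed in any comparison. Of the PRC2 subunits and partners (11 measured), 2 were lower at an unadjusted p under 0.05 in Jak2VF_Ezh2KO against Jak2VF, Ezh2 and Mtf2, and 0 were higher, against 3.99% lower and 2.91% higher over all genes. Ezh1, the paralogue of Ezh2 that can take its place, read 7.14, 7.51 and 7.48 on the WT arrays, 7.14, 7.50 and 7.65 on the Jak2VF arrays, and 7.51, 7.53 and 7.61 in Jak2VF_Ezh2KO. It differed by 0.12 ± 0.16 from Jak2VF (SE, limma adjusted p = 0.918). Of 11 PRC1 genes, 1 was higher at that threshold in this comparison, Bmi1, and 0 were lower. Against WT 2 were higher, Bmi1 and Cbx7, and 1 lower, against 4.54% higher and 4.06% lower over all genes. The lower one was Cbx8, another chromodomain subunit, at -0.36 (limma adjusted p = 0.58) with no overlap. Bmi1, the PRC1 subunit that stem cells need, read 5.89, 6.02 and 5.87 on the WT arrays, 6.10, 6.30 and 5.97 on the Jak2VF arrays, and 6.94, 6.81 and 6.16 in Jak2VF_Ezh2KO (0.71 ± 0.20 SE against WT, limma adjusted p = 0.438). Cbx7, a reader of the Ezh2 mark, differed from WT by 0.53 (limma adjusted p = 0.411).

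Among 18 genes of the MLL and elongation complexes that keep Hox genes on, 1 was higher and 1 lower at an unadjusted p under 0.05 in Jak2VF_Ezh2KO against Jak2VF, where 6.89% of all genes were, and the median difference was -0.03. Mllt3, an elongation cofactor that stem cells need, read 8.04, 7.97 and 7.94 on the WT arrays, 7.46, 7.25 and 7.55 on the Jak2VF arrays, and 7.86, 7.66 and 7.78 in Jak2VF_Ezh2KO. All Jak2VF arrays were below the others, with a difference of -0.56 ± 0.13 from WT (SE, limma adjusted p = 0.868). Kdm6a, the X-linked demethylase that removes the Ezh2 mark, read 8.10 to 8.32 on the WT arrays, 8.10 to 8.31 on the Jak2VF arrays, and 7.55, 7.26 and 8.02 in Jak2VF_Ezh2KO, where its lower 2 readings are the male arrays, and the part of sex in this was not tested. It differed from Jak2VF by -0.56 ± 0.19 (SE, limma adjusted p = 0.55).

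The TALE homeodomain partners, which bind DNA with Hox proteins, were measured for 10 of 11 genes. In Jak2VF_Ezh2KO against Jak2VF, 1 was higher and 2 were lower at an unadjusted p under 0.05, against 2.91% and 3.99% of all genes. Meis1, the partner of Hoxa9, read 9.62, 9.75 and 9.64 on the WT arrays, 9.71, 9.55 and 9.59 on the Jak2VF arrays, and 9.49, 8.86 and 9.37 in Jak2VF_Ezh2KO. The last group was below both others without overlap (-0.43 ± 0.17 SE against WT, limma adjusted p = 0.539). Pbx3, which stabilises Hoxa9 on DNA, read 5.82, 6.48 and 6.09 in Jak2VF and 6.60, 6.65 and 6.95 in Jak2VF_Ezh2KO (0.60 ± 0.18 SE, limma adjusted p = 0.47).

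Of 16 genes that Hoxa9 and Meis1 are known to bind or activate, 15 were measured and 0 passed. At an unadjusted p under 0.05, 2 were higher and 4 lower in Jak2VF_Ezh2KO against Jak2VF, against 2.91% and 3.99% of all genes, and the median difference was -0.04, the same as over all genes. Id2, an inhibitor of basic helix-loop-helix factors, read 5.54 to 6.62 in Jak2VF and 7.57 to 7.86 in Jak2VF_Ezh2KO (limma adjusted p = 0.093). Of the genes next to the clusters, 15 of 16 were measured and 0 passed. Their median difference in Jak2VF_Ezh2KO against Jak2VF was -0.09, beside -0.04 over all genes. At an unadjusted p under 0.05, 2 were lower there and 0 higher, against 3.99% and 2.91% of all genes. Without overlap, 3 were lower and 0 higher, against 6.94% and 4.18%. Snx10, which lies near the Hoxa cluster, read 7.39 to 7.52 in WT, 7.62 to 7.82 in Jak2VF and 7.47 to 7.52 in Jak2VF_Ezh2KO.

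The 5 Cdx and Evx genes had 0 differences at an unadjusted p under 0.05 in the 3 comparisons. So did the 6 of 15 non-coding cluster genes that were measured. Over all genes the shares were 4.66%, 6.89% and 8.6%, and at such shares lists this short say little. Hotair, the antisense RNA of the Hoxc cluster, read 5.02 to 6.00 over the 9 arrays, below the receptor percentile on all.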

How the data were processed

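Expression was measured on Affymetrix mouse gene arrays, 1 for each of 9 samples of sorted LT-HSC RNA. The authors deposited processed log2 values for 41345 probe sets, and Partek 6.6 is named in the submitters' processing notes. The sources used here do not give the background correction, normalization or summary, and no further normalization was applied. Platform annotation gave 23521 probe sets 1 symbol and 1814 several, while 16010 were unnamed here. For 1082 genes with more than 1 probe set the brightest over the 9 arrays was kept.

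Groups were compared with limma 3.58.1 under R 4.3.3 (lmFit, then eBayes with no trend), fitted once to the 9 arrays, with 6 residual degrees of freedom and Benjamini-Hochberg adjustment over 22180 genes within a comparison. Genes passed at an adjusted p under 0.05. The fit was tested on simulated data with changes larger than any Hox difference found here, so that test does not cover the sizes seen. The 3 arrays per group limit the precision.

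Values by array are given for Hox genes above the receptor background on all arrays and for the 6 smallest unadjusted p-values of each comparison. Of each related list up to 4 members with the smallest p are named, and always Ezh2, Ezh1 and Jak2. Members and lists were chosen with earlier results of these data known. Promoter windows come from RefSeq (GRCm38.p6). The sources used here do not name a build for the array.

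Alternatives were trend and robust variance, ordinary least squares, quantile normalization, median centring, dimmer genes left out, other choices of probe set and of groups in the fit, array weights, the replicate block, a sex covariate, a receptor-signal covariate and each array left out. Leaving out the arrays that carry Y-linked signal, or the 3 with the highest receptor signal, was chosen after seeing the data.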

Additional observations from a re-analysis of the deposited data

How the results depend on the processing

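No Hox gene passed under any of the 23 alternatives run, 9 of which leave out 1 array, and the smallest adjusted p was 0.404 in Jak2VF against WT, 0.272 in Jak2VF_Ezh2KO against Jak2VF and 0.293 in Jak2VF_Ezh2KO against WT. The labels do not say that replicate numbers pair the arrays. The deviations of same-numbered arrays correlated at 0.21, 0.48 and -0.23 for Jak2VF with WT. They correlated at -0.01, -0.17 and -0.02 for Jak2VF_Ezh2KO with Jak2VF, and at -0.05, -0.14 and -0.03 for Jak2VF_Ezh2KO with WT. Differently numbered arrays were not compared, so these values cannot settle whether arrays were paired. The replicate block cannot move a difference in this balanced design (Hoxa4 0.56 in Jak2VF_Ezh2KO against Jak2VF). With it the adjusted p of Hoxa4 there was 0.439, and 0 Hox genes passed. Of the values compared, 1006 stayed, 27 moved and 6 reversed. A gene's difference stayed if it kept its sign and its side of the adjusted p threshold, which no Hox gene crossed. A median stayed if it shifted by less than the spread between replicates. These counts therefore do not measure how stable the sizes were. Hoxa7 in Jak2VF against WT ran from 0.078 to 0.47 and still counted as stayed.

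With dimmer genes left out, 8 of 36 Hox genes remain, so medians rest on few genes. The values for Hoxd are those of Hoxd10 alone, and the values for groups 1 to 3 those of Hoxb3 alone. In Jak2VF against WT the medians became 0.13 for Hoxa, -0.30 for Hoxd, -0.22 for groups 1 to 3 and 0.070 for groups 4 to 8. In Jak2VF_Ezh2KO against Jak2VF they were -0.17 for groups 1 to 3 and 0.18 for groups 9 to 13, and against WT -0.17 for Hoxd, -0.39 for groups 1 to 3 and 0.093 for groups 9 to 13. With array weights Hoxd was -0.039 in Jak2VF_Ezh2KO against Jak2VF. With a sex covariate or without both male arrays, both of which rest Jak2VF_Ezh2KO on replicate 3 alone, Hoxa was 0.46 against Jak2VF and 0.35 against WT, and Hoxc was 0.076 against WT. Without the 3 arrays of highest receptor signal, which leaves 1 WT array (replicate 2), assumed like any lone array to vary as the other groups do, Hoxc was 0.12 and groups 4 to 8 were 0.052 in Jak2VF against WT, Hoxa9 was -0.018, and in Jak2VF_Ezh2KO against WT Hoxa was 0.045 and Hoxc 0.14. Further causes were not tested.

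With single arrays left out, medians in Jak2VF against WT ranged from -0.17 to 0.023 for Hoxa, from -0.19 to 0.024 for Hoxc and from -0.11 to 0.088 for groups 4 to 8. In Jak2VF_Ezh2KO against Jak2VF they ranged from 0.14 to 0.42 for Hoxa and from -0.064 to 0.18 for Hoxd, and against WT from 0.10 to 0.30 for Hoxa and from -0.18 to 0.067 for Hoxd. Hoxa9 in Jak2VF against WT ranged from -0.0086, without Jak2VF replicate 3, to 0.29. Hoxb4 ranged from -0.13 to 0.19 in Jak2VF against WT, from -0.26 to 0.063 in Jak2VF_Ezh2KO against Jak2VF, and from -0.15 to 0.0047 in Jak2VF_Ezh2KO against WT, with a changed sign without WT replicate 3 or Jak2VF replicate 3, without Jak2VF replicate 3, and without WT replicate 1.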

Other observations

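Probe sets that name a Hox gene together with another gene were not used above, and give a second reading of some members. The probe set shared by Hoxb3 and Hoxb2 had means of 7.14, 6.93 and 6.57 for WT, Jak2VF and Jak2VF_Ezh2KO. The difference of Jak2VF_Ezh2KO from WT was -0.57 (limma unadjusted p = 0.028), and it did not pass over all probe sets (adjusted p = 0.534). Hoxb3 alone also differed by -0.39 in that comparison, and the 2 probe sets share the arrays. The probe set shared by Hoxa3 and the RIKEN gene 5730446D14Rik had means of 6.14, 6.09 and 6.46, and differed by 0.37 between Jak2VF_Ezh2KO and Jak2VF (limma adjusted p = 0.765). The one shared by Mira and Hoxa7, with means of 8.10, 8.23 and 8.20, differed by -0.03 there.

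Hoxb5 was the only member with a second probe set of its own, and the other probe sets below are shared between genes. Hoxb5 differed by 0.01 between Jak2VF_Ezh2KO and Jak2VF on the probe set kept and by -0.33 on its other one (limma adjusted p = 0.767). The 2 probe sets of Hoxa11 and Hoxa11os had means of 4.78, 4.87 and 4.81, and of 5.04, 5.12 and 4.84, in the same order. That of Hoxd4 and Hoxd3 had 5.28, 5.24 and 5.21. The probe set shared by Mir10a and Hoxb4 read 6.23 on WT replicate 1 and from 2.27 to 4.73 on the other arrays.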
